A study of Mus musculus with 8 samples.

Results

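The 5 transcription factors that together mark the thyroid follicular cell lineage, Pax8, Nkx2-1, Foxe1, Hhex and Glis3, were followed through thyroid follicular cell organoids (TFCOs), thyroid tissue and lung tissue of the mouse. They were chosen by gene symbol, with no measured value used, and all 5 (PAX8, NKX2-1, FOXE1, HHEX and GLIS3 in the capitals of the table) were found among its 16119 genes and passed the filter on low values. RNA was sequenced from 8 libraries. TFCO lines mThy14 and mThy16 were sampled once at early and once at late passage, and thyroid tissue and lung tissue were sampled 2 times each. All material was labelled wild type, strain C57BL/6 and untreated; the study's methods name female mice, and ages were not given in the sources used here. Each TFCO line was grown from the thyroid of a single mouse, so that the early and late libraries of a line are one culture at different times. TFCOs are epithelial cultures embedded in basement membrane extract, in a medium that contains R-spondin 3 conditioned medium, EGF, FGF10, forskolin, which raises cAMP, and A83-01, an inhibitor of the TGFβ receptors. Lung tissue served as a control that also uses Nkx2-1.

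Thyroid follicular cells make thyroid hormone on the scaffold protein thyroglobulin, encoded by Tg. Pax8 (a paired box factor), Nkx2-1 (a homeodomain factor), Foxe1 (a forkhead factor) and Hhex (a homeobox factor) are expressed together from the thyroid bud onwards, and their combination, rather than any one of them, is particular to the thyroid. Pax8, Nkx2-1 and Foxe1 bind the control regions of Tg. Glis3, a zinc finger factor, acts downstream of the thyrotropin receptor and is needed for iodide transport and hormone production. Outside the thyroid, Nkx2-1 is also used by lung epithelium and forebrain, Pax8 by kidney, Hhex by liver and early endothelium, and Glis3 by pancreas and kidney.

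On the mouse annotation GENCODE M21 (GRCm38), Pax8 lies on the minus strand of chromosome 2 from 24420560 to 24475599, Nkx2-1 on the minus strand of chromosome 12 from 56531958 to 56536908, and Foxe1, which has 1 exon, on the plus strand of chromosome 4 from 46343609 to 46346412. Hhex and Glis3 share chromosome 19, with Hhex on the plus strand from 37434810 to 37440731 and Glis3 on the minus strand from 28258851 to 28680077. Pax8, Foxe1, Nkx2-1 and Glis3 each overlap a non-coding gene on the opposite strand, none of which had a row of its own in the table. Glis3 also overlaps 4933413C19Rik, an intronic gene on the same strand, which had no row either. Of the 50-base stretches in their transcripts, 0% of Pax8 and Foxe1, 0.194% of Hhex, 0.328% of Glis3 and 1.34% of Nkx2-1 also occur in a transcript of another gene.

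The 250 bases before the RefSeq start of 4 of the 5 factors are printed here (GRCm38.p6, 5′ to 3′ on the strand of the gene), since Pax8, Nkx2-1 and Hhex stood higher and Glis3 lower in the same TFCO line below. The promoters of Slc26a4 (the anion exchanger pendrin) and Duox2 (an oxidase that supplies hydrogen peroxide for hormone synthesis) follow, because they are the function genes among the 8 of 10 with an entry that hold the letters CTCAAG, the core that NKX2-1 binds. Capitals mark a match on either strand to 1 of 5 short motifs. These were CTCAAG (NKX2-1), TAAACA (forkhead), GTCACGC (PAX), CAATTA (homeodomain) and TGGGGGG (GLIS).
Pax8 promoter, chr2:24475600-24475849, minus strand: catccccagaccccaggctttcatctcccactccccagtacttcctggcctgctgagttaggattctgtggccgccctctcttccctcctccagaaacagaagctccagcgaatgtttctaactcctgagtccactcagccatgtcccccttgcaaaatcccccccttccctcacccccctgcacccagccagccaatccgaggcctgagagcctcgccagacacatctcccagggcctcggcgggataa
Nkx2-1 promoter, chr12:56536909-56537158, minus strand: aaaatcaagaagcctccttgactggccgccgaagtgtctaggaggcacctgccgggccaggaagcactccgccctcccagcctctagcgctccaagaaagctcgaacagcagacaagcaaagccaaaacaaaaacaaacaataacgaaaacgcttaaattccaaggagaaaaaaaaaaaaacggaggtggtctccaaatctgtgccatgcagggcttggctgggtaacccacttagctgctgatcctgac
Hhex promoter, chr19:37434591-37434840, plus strand: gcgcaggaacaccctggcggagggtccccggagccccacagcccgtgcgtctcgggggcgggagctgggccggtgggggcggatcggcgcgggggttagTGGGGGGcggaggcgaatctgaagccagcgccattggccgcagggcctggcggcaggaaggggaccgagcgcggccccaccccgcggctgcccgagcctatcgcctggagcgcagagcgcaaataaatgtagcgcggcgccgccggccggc
Glis3 promoter, chr19:28680078-28680327, minus strand: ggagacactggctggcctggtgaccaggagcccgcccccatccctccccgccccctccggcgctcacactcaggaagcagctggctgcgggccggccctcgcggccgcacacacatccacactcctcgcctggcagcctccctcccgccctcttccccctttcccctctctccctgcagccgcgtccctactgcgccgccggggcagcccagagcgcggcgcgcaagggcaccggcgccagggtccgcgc
Slc26a4 promoter, chr12:31559985-31560234, minus strand: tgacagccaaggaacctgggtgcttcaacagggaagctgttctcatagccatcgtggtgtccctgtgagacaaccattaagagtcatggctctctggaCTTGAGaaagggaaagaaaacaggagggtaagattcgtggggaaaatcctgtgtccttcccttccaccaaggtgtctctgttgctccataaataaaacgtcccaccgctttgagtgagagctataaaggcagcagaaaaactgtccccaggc
Duox2 promoter, chr2:122298228-122298477, minus strand: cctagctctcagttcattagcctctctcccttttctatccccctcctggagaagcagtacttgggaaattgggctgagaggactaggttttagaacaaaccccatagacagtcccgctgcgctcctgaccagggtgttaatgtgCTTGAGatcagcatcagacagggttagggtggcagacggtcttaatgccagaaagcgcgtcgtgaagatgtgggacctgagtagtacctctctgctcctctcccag

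The Hhex promoter held the GLIS letters on the plus strand, 151 bases before the start. Those of Slc26a4 and Duox2 held the NKX2-1 letters on the minus strand, 152 and 106 bases before their RefSeq starts. In GENCODE M21, however, Duox2 runs from 122279247 to 122298449 on the minus strand. Most of its printed window, with these letters, thus lies inside the annotated gene. Among the function genes with an entry, Slc5a5 (the iodide importer) also held the GLIS letters, and Dio1 (a deiodinase) the forkhead letters. Pax8, Nkx2-1 and Glis3 had no match to any of the 5 motifs in this window. Of 32851 promoters of the same length, 13.3% held the NKX2-1 letters, 12.0% the forkhead, 1.78% the PAX, 7.17% the homeodomain and 7.67% the GLIS letters. The promoters of Hhex and Glis3 were rich in G and C (76.0% and 75.6%, with 32 and 24 CpG pairs), while those of Pax8 (60.4%, 6 pairs) and Nkx2-1 (50.8%, 9 pairs) were nearer the median of all promoters, 52.4%. A match describes letters and not a bound site. Foxe1, Tg and Tshr had no entry.

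Between 9755081 and 16904865 reads per library fell on genes. The deposited values are normalized counts, that is, reads per gene divided by a size factor of the library, and groups were compared on log2(normalized count + 1) with limma for the 14703 genes that reached 10 in no fewer than 2 libraries. The libraries were divided into 2 sets, and genes were not counted for any other division. In the 4 TFCO libraries and thyroid tissue 1, 44 genes were at 50 or more that were at 0 in thyroid tissue 2 and both lung libraries, and 16 genes showed the reverse. A difference between TFCOs and lung can therefore not be told apart from the difference between sets, whereas thyroid tissue 1 shares a set with the TFCOs and thyroid tissue 2 with the lungs. Tg, the defining gene of follicular cells, took 12.0% and 17.2% of the normalized counts in the thyroid tissues and at most 0.922% in a TFCO library, and Sftpc, a defining gene of lung epithelium, was at 241128 and 180943 in the lungs.

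All 5 factors were expressed in every TFCO library and every thyroid tissue. Pax8 stood at 8273 normalized counts in early and 7560 in late mThy14, at 4259 in early and 3925 in late mThy16, at 8300 and 5714 in the thyroid tissues, and at 0 in both lungs. Nkx2-1 stood at 12087 and 11848 in early and late mThy14, at 4422 and 3521 in early and late mThy16, at 7778 and 4401 in the thyroid tissues, and at 2890 and 1721 in the lungs. Both thyroid tissues lay between the lines for Nkx2-1, except that thyroid tissue 2 was just below early mThy16. Foxe1 was at 4311 and 5080 in early and late mThy14, at 1157 and 878 in early and late mThy16, at 3571 and 5241 in the thyroid tissues, and at 0 and 0.674 in the lungs, the latter being 1 read. For Foxe1 the mThy16 libraries lay below all other thyroid samples. Hhex was at 4801 and 5823 in early and late mThy14, at 1743 and 1311 in early and late mThy16, at 1266 and 2351 in the thyroid tissues, and at 323 and 233 in the lungs. Here mThy14 lay above all other libraries, and mThy16 within the range of thyroid tissue. Glis3, the least abundant of the 5, was at 545 and 310 in early and late mThy14, at 682 and 672 in early and late mThy16, at 263 and 455 in the thyroid tissues, and at 118 and 169 in the lungs. For Glis3 it was mThy16 that exceeded all other libraries.

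**Figure D1:**
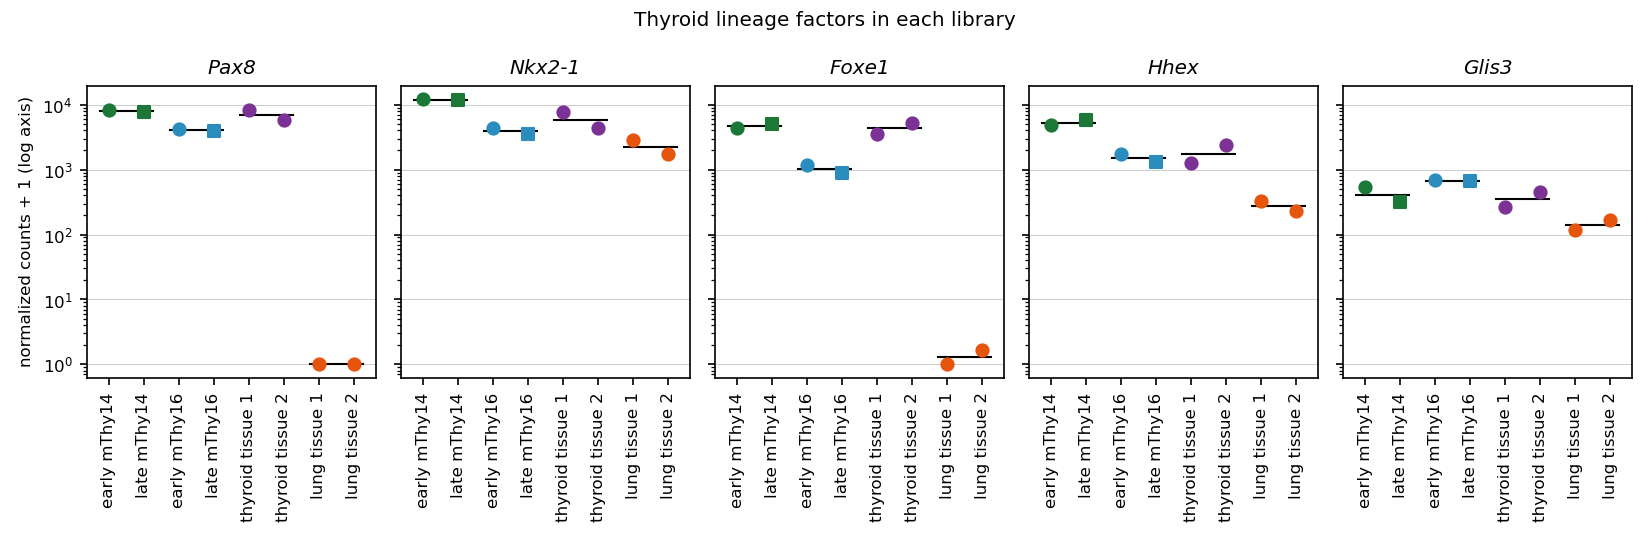
Normalized counts + 1 (log axis) of each factor in the 8 libraries; circles are early TFCOs or tissues, squares late TFCOs, colours the TFCO line or tissue, and each horizontal line the geometric mean of a pair of libraries. Pax8 and Foxe1 were at 0 or 1 read in lung, and the mThy14 points lay above the mThy16 points for all factors except Glis3.

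Averaged by group, Pax8 was at 6266 ± 2838 normalized counts at early passage, at 5742 ± 2570 at late passage and at 7007 ± 1828 in the gland (SD, n = 2 throughout). Nkx2-1 was at 8255 ± 5421, 7685 ± 5888 and 6090 ± 2388 in the same order, with 2305 ± 827 in lung. Foxe1 was at 2734 ± 2230, 2979 ± 2972 and 4406 ± 1181. For these 3 factors the neighbours in the order of early TFCOs, late TFCOs and thyroid tissue differed by less than the spread within a group. Hhex was at 3272 ± 2163, 3567 ± 3191 and 1809 ± 767, against 278 ± 64.2 in lung. Glis3 was at 614 ± 96.8, 491 ± 256 and 359 ± 135, against 143 ± 35.6 in lung. Hhex and Glis3 likewise had no neighbours among the thyroid groups that were further apart than the larger of their SDs. Early TFCOs and thyroid tissue are not neighbours in this order. For Glis3 their means (614 and 359) were further apart than either SD. The SDs of the TFCO groups hold the difference between the lines, which for all factors except Glis3 was larger than that between the passages of either line.

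To rank the factors, the values were divided by the kilobases of the longest annotated transcript. This assumes reads along the whole transcript, as the study's methods describe, whereas the labels name an adapted CEL-Seq protocol, which counts transcript ends and would need no division. On that scale Nkx2-1 led in all 4 TFCO libraries, with 4303 and 4218 normalized counts per kb in early and late mThy14 and 1574 and 1254 in early and late mThy16. Pax8 followed, with 2443 and 2233 in mThy14 and 1258 and 1159 in mThy16. Foxe1 then preceded Hhex in mThy14, at 1537 against 1229 early and 1812 against 1490 late, whereas Hhex preceded Foxe1 in mThy16, at 446 against 413 early and 336 against 313 late. Thyroid tissue 1 followed the order of mThy14, and in thyroid tissue 2 the 3 leading factors lay close together, with Foxe1 at 1869, Pax8 at 1688 and Nkx2-1 at 1567. Glis3 was last in each of these 6 libraries, between 35.1 and 90.8 per kb. Undivided, the order changed in places: Pax8 (3925) exceeded Nkx2-1 (3521) in late mThy16, and Hhex exceeded Foxe1 in mThy14 too, at 4801 against 4311 early and 5823 against 5080 late. In lung Nkx2-1 was at 1029 and 613 per kb, Hhex at 82.7 and 59.5 and Glis3 at 15.7 and 22.4.

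The comparison of TFCOs with thyroid tissue asked whether the cultures kept the lineage factors at the level of the gland. None of the 5 factors differed past an adjusted p of 0.05, in a comparison in which 3.65% of all genes did (limma, the passages of a line averaged, 2 lines against 2 tissues). Pax8 differed by -0.28 on the log2 scale (TFCO minus thyroid; SE 0.47, adjusted p = 0.755 by limma, 95% interval -1.38 to 0.83). Nkx2-1 differed by 0.23 (SE 0.63, limma adjusted p = 0.850) and Foxe1 by -0.99 (SE 0.76, limma adjusted p = 0.482). Hhex differed by 0.71 (SE 0.63, limma adjusted p = 0.535) and Glis3 by 0.61 (SE 0.50, limma adjusted p = 0.503). The median over the 5 was 0.23, against 0.05 over all genes. The intervals were wide, from -1.25 to 1.72 for Nkx2-1, -2.79 to 0.81 for Foxe1, -0.77 to 2.20 for Hhex and -0.56 to 1.78 for Glis3, so differences of 2-fold or more in at least one direction could not be seen at this number of samples. The sign for Nkx2-1 rested on the scaling and on thyroid tissue 2, being -0.25 after quantile normalization, -0.013 with libraries scaled to the same total without Tg, and -0.18 against thyroid tissue 1 alone.

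Against thyroid tissue 1, the tissue in the same set of libraries, the mean of the TFCOs differed by -0.55 for Pax8, -0.18 for Nkx2-1, -0.72 for Foxe1, 1.16 for Hhex and 1.00 for Glis3 on the log2 scale, with no test. The lines stood on different sides of the tissue mean for all factors except Glis3, which was above it in both. Line mThy14 differed from the mean of the thyroid tissues by 0.20 for Pax8, 1.03 for Nkx2-1, 0.11 for Foxe1, 1.62 for Hhex and 0.25 for Glis3. Line mThy16 differed by -0.75, -0.57, -2.10, -0.19 and 0.97 in the same order.

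The summed markers of other cell types were at higher levels in thyroid tissue than in the cultures. The summed normalized counts of 6 stromal markers ranged from 25237 to 29602 in thyroid tissue and from 91.6 to 247 in TFCOs, in which Lum was at 0. Sums of 6 endothelial markers were 2636 to 8349 in tissue and 186 to 532 in TFCOs, those of 5 leukocyte markers 704 to 1125 and 39.4 to 67.3, and those of 6 skeletal muscle markers 40282 to 114644 and 2063 to 2663, against 210 to 509 in lung. Among the leukocyte markers, the TFCO mean of Cd68 differed from thyroid tissues 1 and 2 by 0.85 and -6.28 on the log2 scale. The means of the other leukocyte markers were below both tissues. C cell markers, which belong to the calcitonin cells of the gland, summed to 40456 to 69765 in tissue and 75.3 to 455 in TFCOs, and parathyroid markers to 9811 to 25996 and 7.92 to 27.1, with Pth at 0 in TFCOs. The 6 epithelial markers summed to 15352 to 22552 in tissue and 23953 to 37490 in TFCOs. The part of these cells in the levels above was not tested, and in bulk RNA fewer cells of a type and less RNA per cell cannot be told apart.

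Lung tissue lacked Pax8 and nearly lacked Foxe1. Set against a floor of 3 reads in each lung library (2.51 and 2.02 normalized counts), the geometric mean of Pax8 was at least 2263-fold higher in TFCOs and at least 2741-fold higher in thyroid tissue. For Foxe1, with 1 read in lung, the ratio was 5813 in TFCOs (95% counting interval 1043 to 229619) and 11583 in thyroid tissue (2079 to 457487), where the intervals cover counting error only. Of the 5 factors, 4 were called higher in TFCOs than in lung, against 9.83% of all genes called higher. They were Pax8 (limma adjusted p = 0.000154), Foxe1 (limma adjusted p = 0.000596), Hhex and Glis3. Hhex was higher by 3.36 (SE 0.63, limma adjusted p = 0.0150), 10.3-fold, and Glis3 by 1.90 (SE 0.50, limma adjusted p = 0.0379), 3.72-fold. Nkx2-1, the factor shared by both organs, differed by 1.62 (SE 0.63, limma adjusted p = 0.0916). The calls for Hhex and Glis3 depended on both lung libraries: without lung 1 the limma adjusted p was 0.0894 and 0.210, and without lung 2 it was 0.126 and 0.153. Glis3 also lost its call without early mThy14 (0.0668), with libraries scaled to the same total (0.0532) and without a mean-variance trend (0.0649).

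Between thyroid and lung tissue, 2 of the 5 factors were called higher, Pax8 (limma adjusted p = 0.000145) and Foxe1 (limma adjusted p = 0.00104), against 2.89% of all genes. Nkx2-1 differed by 1.39 (SE 0.63, limma adjusted p = 0.248), Hhex by 2.65 (SE 0.63, limma adjusted p = 0.0571) and Glis3 by 1.29 (SE 0.50, limma adjusted p = 0.181). Within the second set of libraries, thyroid tissue 2 exceeded the lung mean by 0.98 for Nkx2-1, 3.10 for Hhex and 1.68 for Glis3, with no test. Hhex passed the threshold after quantile normalization (0.0313), with the total scaled without Tg (0.0471) and without late mThy16 (0.0460). The lungs carried summed endothelial markers of 25563 to 43927.

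Among 9 genes that NKX2-1 is known to activate in lung, 6 were called lower in TFCOs than in lung, against 13.5% of all genes called lower. The 6 included Sftpb, with values given below, Sftpc, which was at 180943 and 241128 in lung and at 7.0 to 266 in TFCOs, and Scgb1a1, at 261418 and 665857 in lung and 5.0 to 23.9 in TFCOs. Sftpc and Scgb1a1 encode secreted proteins of the alveoli and airways. Scgb3a2 was at 0 in all TFCO libraries. Others of the list were well expressed in both, with Napsa at 3592 to 14180 in TFCOs and 7287 and 4260 in lung, and Abca3 at 2280 to 4403 in TFCOs and 7097 and 5434 in lung. Thyroid tissue expressed them too. The TFCO mean differed from thyroid tissues 1 and 2 by 0.32 and -0.19 for Abca3 on the log2 scale, with no test. For Napsa it differed by 2.42 and -0.11. Against thyroid tissue, however, 2 surfactant genes of this list were called higher in TFCOs, against 0.599% of all genes called higher. Sftpb, which encodes surfactant protein B, was at 28177 and 1475 in early and late mThy14, at 3031 and 2066 in early and late mThy16, and at 25.0 and 28.6 in thyroid tissue. Its difference was 7.18 (SE 0.52, limma adjusted p = 0.00177). Sftpd, which encodes surfactant protein D, was at 3046 and 920 in early and late mThy14, at 4075 and 4284 in early and late mThy16, and at 14.2 and 1.8 in thyroid tissue, a difference of 8.65 (SE 0.86, limma adjusted p = 0.00592). Both calls held as each library was left out, with adjusted p at most 0.0465 for Sftpb over all alternatives, while Sftpd lost its call with voom (0.0656). In lung Sftpb was at 56914 and 34374 and Sftpd at 17951 and 7579.

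Of 14 further factors of pharynx and thyroid development, 12 were tested. Eya1, a coactivator of organ formation in the pharynx, was lower in TFCOs than in thyroid tissue by -3.94 (SE 0.75, limma adjusted p = 0.0389), with 3.0 to 22.4 normalized counts against 147 and 193, the single one called, where 3.05% of all genes were called lower. Its call was lost without early mThy16, thyroid tissue 2, either lung library or both, without the filter on low values, and with voom (adjusted p at most 0.153, without both lung libraries). Sox9, a factor of endodermal progenitors, reached 3917 to 9208 in TFCOs and 2343 and 3807 in thyroid tissue against 10.1 and 7.4 in lung. Pax9, a factor of the pharyngeal pouches, was at 243 to 682 in TFCOs and 190 and 284 in thyroid tissue against 10.9 and 3.4 in lung. Both were called higher than in lung for TFCOs (9.25 and 5.76 on the log2 scale, limma adjusted p = 0.000217 and 0.00557) and for thyroid tissue (8.28 and 5.02, limma adjusted p = 0.000655 and 0.0184). Gata6, a factor of lung and heart, was called lower in both, by -2.90 and -3.98 (limma adjusted p = 0.0286 and 0.0226). In thyroid tissue 3.16% of all genes were called lower than in lung. Of the 12, 3 were called higher than in lung in TFCOs and 4 in thyroid tissue, against 9.83% and 2.89% of all genes. They included Nkx2-3 in TFCOs (3.86, SE 1.10, limma adjusted p = 0.0455) and Isl1 in thyroid tissue (7.27, SE 1.32, limma adjusted p = 0.0270). Isl1 was at 597 and 238 in thyroid tissue and 2.2 to 122 in TFCOs. Both of these calls were lost without either lung library. That of Nkx2-3 was also lost without early mThy14, early mThy16 or late mThy14, with a pseudocount of 10 and with voom. That of Isl1 was also lost without thyroid tissue 1 and with tissue number as a block. The calls of Sox9 held without each library in turn, whereas those of Gata6 were lost without either lung library or, in TFCOs, without early mThy14, and Pax9 lost its call in TFCOs without lung 2 (0.0521) and in thyroid tissue without thyroid tissue 1 or either lung library.

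Of 14 cofactors of the lineage factors, none was called between TFCOs and thyroid tissue, and their median difference was 0.31. Against lung, 3 were called in TFCOs, 2 higher and 1 lower, where 9.83% of all genes were called higher and 13.5% lower, so the share of cofactors was near that of all genes. Smad3, a transducer of TGFβ signals, was higher by 2.24 (SE 0.35, limma adjusted p = 0.00860), Apex1, a redox regulator of Pax8, by 1.80 (SE 0.45, limma adjusted p = 0.0335), and Nfic, of the nuclear factor I family, was lower by -1.60 (SE 0.36, limma adjusted p = 0.0268). Kcnip3, the calcium-dependent repressor DREAM, was called between thyroid and lung tissue (5.32, SE 0.81, limma adjusted p = 0.0167). All of these calls were lost without either lung library, those of Apex1 and Nfic also without the mean-variance trend, that of Apex1 also without early mThy14 and that of Kcnip3 also without thyroid tissue 1.

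Late passage was compared with early passage to ask whether the lineage factors held during culture. No factor and no other gene of the 14703 tested passed the threshold (0% called, limma; 166 genes, 1.13%, had an unadjusted p under 0.05, and voom on the recovered reads also called 0). On the log2 scale Pax8 differed by -0.12 (SE 0.47), Nkx2-1 by -0.18 (SE 0.71), Foxe1 by -0.08 (SE 0.88), Hhex by -0.07 (SE 0.74) and Glis3 by -0.42 (SE 0.51). The intervals ran from -1.20 to 0.95 for Pax8, -1.80 to 1.45 for Nkx2-1, -2.10 to 1.94 for Foxe1, -1.77 to 1.64 for Hhex and -1.58 to 0.75 for Glis3. With the line as a block, which removes the difference between lines, the SEs fell to 0.31, 0.44, 0.41, 0.39 and 0.43 and 0 genes passed the threshold. Within a line, Pax8 moved by -0.13 in mThy14 and -0.12 in mThy16, and Nkx2-1 by -0.03 and -0.33. Foxe1 moved by 0.24 in mThy14 and -0.40 in mThy16, Hhex by 0.28 and -0.41, and Glis3 by -0.81 and -0.02. These within-line values rest on 1 library at each passage and have no test.

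**Figure D2:**
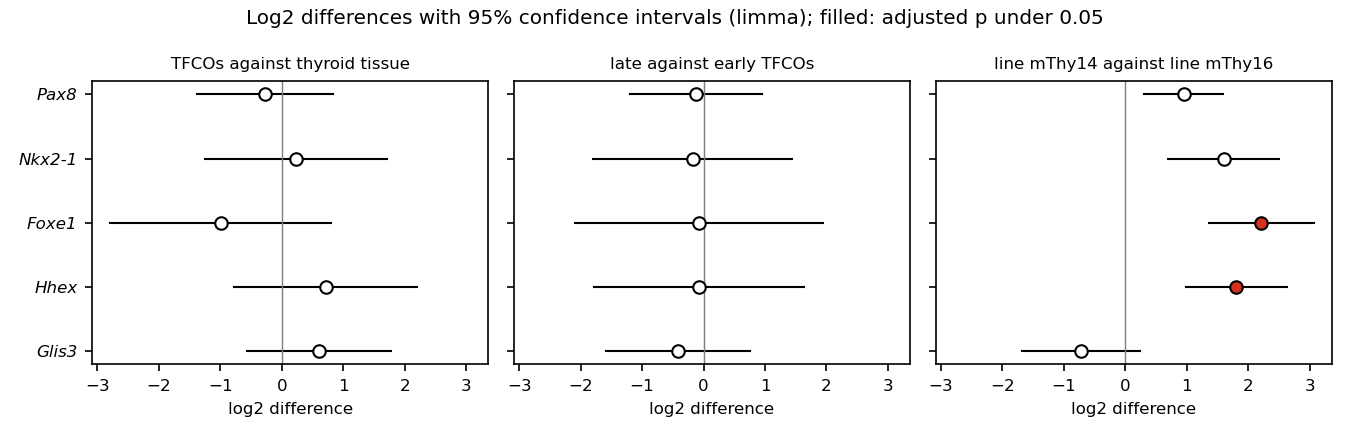
Log2 differences of the 5 factors (points) with 95% confidence intervals from limma (bars) for TFCOs against thyroid tissue, late against early TFCOs, and line mThy14 against line mThy16; filled points have an adjusted p under 0.05. The intervals include 0 for all 5 factors in the first 2 comparisons, and Foxe1 (2.21) and Hhex (1.81) are filled in the third.

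The TFCO lines were compared to see whether separate cultures carried the factors at one level. In mThy14 both passages lay above both passages of mThy16 for Pax8, Nkx2-1, Foxe1 and Hhex, and below them for Glis3. Such an absence of overlap was common, with 29.1% of all genes higher and 26.4% lower in this way. By limma 2 of the 5 were called higher in mThy14, against 0.973% of all genes called higher. Foxe1 was higher by 2.21 (SE 0.38, limma adjusted p = 0.0185), 4.64-fold, and Hhex by 1.81 (SE 0.36, limma adjusted p = 0.0327), 3.5-fold. Nkx2-1 differed by 1.60 (SE 0.40, limma adjusted p = 0.0724), Pax8 by 0.95 (SE 0.28, limma adjusted p = 0.128) and Glis3 by -0.72 (SE 0.42, limma adjusted p = 0.489). These p-values compare 2 cultures, each from 1 mouse, against the spread between passages and between tissues, and say nothing of lines in general. The calls did not survive the loss of a TFCO library: leaving out each of the 4 in turn, the limma adjusted p of Foxe1 ranged from 0.0777 (without early mThy14) to 0.278 (without late mThy16) and that of Hhex from 0.101 to 0.375. Both calls were also lost after quantile normalization (0.0779 and 0.103) and without the mean-variance trend (0.0735 and 0.125). Hhex also lost its call without either lung library (0.0707 and 0.0703), whereas Pax8 and Nkx2-1 passed the threshold without thyroid tissue 1 (0.0408 and 0.0181) or without thyroid tissue 2 (0.0387 and 0.0174).

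Taken passage by passage, the difference between lines was 0.96 early and 0.95 late for Pax8, 1.45 and 1.75 for Nkx2-1, 1.90 and 2.53 for Foxe1, 1.46 and 2.15 for Hhex, and -0.32 and -1.11 for Glis3. Nkx2-1, Foxe1 and Hhex were thus 2-fold or more apart at both passages, which held for 6.32% of all genes in this direction. One cofactor, Kcnip3, was called higher in mThy14 (2.47, SE 0.49, limma adjusted p = 0.0324), at 287 and 647 normalized counts in early and late mThy14 against 73.3 and 80.5 in early and late mThy16. Thyroid tissue had 1022 and 1550 of it. Epithelial identity did not follow the same direction across its markers. Krt7 and Krt8, keratins of simple epithelia, were called lower in mThy14 (-3.60 and -2.05, limma adjusted p = 0.0168 and 0.0343), while Epcam differed by 0.83 (limma adjusted p = 0.330). Of the 6 epithelial markers 2 were called, both lower, against 2.37% of all genes called lower, and the sums of the 6 were 23953 to 37490 over the TFCO libraries. As with Foxe1 and Hhex, these calls rested on single TFCO libraries: the limma adjusted p rose to at most 0.279 for Kcnip3, 0.201 for Krt7 and 0.337 for Krt8 over the alternatives, and without early mThy16, without late mThy16 or without the mean-variance trend all 3 were lost. That of Kcnip3 was also lost after quantile normalization, with voom, without late mThy14 and without either lung library. The part of the keratin difference in the values of the factors was not tested.

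Thyroid function genes were set beside the factors. Tg stood at 126441 and 64646 normalized counts in early and late mThy14, at 12225 and 9532 in early and late mThy16, and at 1526002 and 2175016 in thyroid tissue. The 4 TFCO libraries all lay below both tissues, as they did for 7 of the 10 function genes and for 17.3% of all genes, and TFCOs differed from tissue by -5.87 (SE 1.31, limma adjusted p = 0.0620), while no factor differed by more than 1.0 in size. Of the 10 function genes, 8 had lower and 2 higher fitted values in TFCOs than in tissue, with a median of -3.11 against 0.05 over all genes. Only 1 was called, Dio1 (-5.82, SE 0.96, limma adjusted p = 0.0246), where 3.05% of all genes were called lower. Dio1, the deiodinase that activates thyroid hormone, was at 415 and 72.9 in early and late mThy14, at 41.6 and 15.7 in early and late mThy16, and at 2471 and 5990 in tissue. Its call was lost without late mThy14, thyroid tissue 2, either lung library or both, without the mean-variance trend, and with voom (adjusted p at most 0.123), whereas Tg passed the threshold without early mThy14. Slc5a5 differed by -4.08 (SE 1.10, limma adjusted p = 0.105) and Duox2 by -2.60 (SE 0.63, limma adjusted p = 0.0794). The 2 with higher values were the thyrotropin receptor gene Tshr (1.74, SE 0.86, limma adjusted p = 0.327) and Slc26a4 (5.30, SE 1.31, limma adjusted p = 0.0845).

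The ratio of a function gene to a factor within a library does not depend on the scaling between libraries, nor on how many other cells a sample holds where both genes come from follicular cells. The ratio of Tg to Pax8 was 15.3 and 8.55 in early and late mThy14, 2.87 and 2.43 in early and late mThy16, and 184 and 381 in thyroid tissue. The lowest tissue ratio was thus 12.0 times the highest TFCO ratio, and the geometric means were 48.2-fold apart. The ratio of Tg to Nkx2-1 was 10.5 and 5.46 in mThy14, 2.77 and 2.71 in mThy16, and 196 and 494 in tissue, with geometric means 68.5-fold apart. That of Tg to Foxe1 was 29.3 and 12.7 in mThy14, 10.6 and 10.9 in mThy16, and 427 and 415 in tissue, with geometric means 29.3-fold apart. It varied least between TFCO libraries, by 2.78-fold from lowest to highest, against 6.29-fold for the ratio to Pax8, 3.86-fold to Nkx2-1, 3.75-fold to Hhex and 16.3-fold to Glis3. Tg to Hhex was 7.01 to 26.3 in TFCOs against 925 and 1205 in tissue, and Tg to Glis3 was 14.2 to 232 against 4785 and 5792. With any of the 5 factors as the denominator, both tissues lay above all TFCO libraries. These ratios are descriptions of 6 libraries, with no test.

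**Figure D3:**
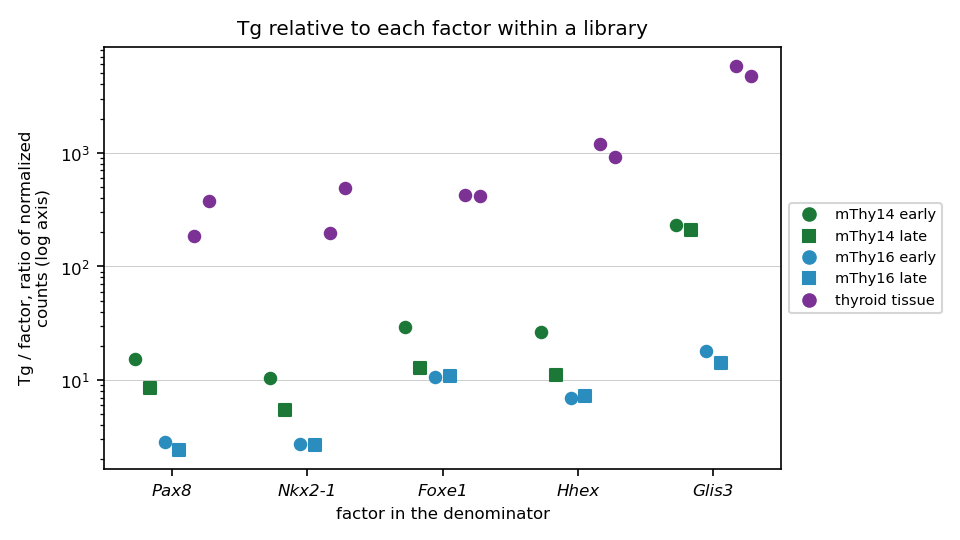
Ratio of Tg to each factor within a library (log axis; circles, early TFCOs or thyroid tissue; squares, late TFCOs; colours, line or tissue). For each of the 5 factors both thyroid tissues lie above the 4 TFCO libraries, by at least 12.0-fold for Pax8 and 14.1-fold for Foxe1.

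Tshr, the gene of the thyrotropin receptor, ran the other way. Its ratio to Pax8 was 0.935 and 1.14 in mThy14, 0.461 and 0.480 in mThy16, and 0.155 and 0.190 in tissue. The factors were also set against each other. Nkx2-1 to Pax8 was 1.46 and 1.57 in mThy14, 1.04 and 0.897 in mThy16, and 0.937 and 0.770 in tissue. Foxe1 to Pax8 was 0.521 and 0.672 in mThy14, 0.272 and 0.224 in mThy16, and 0.430 and 0.917 in tissue, and here the tissues overlapped mThy14. Hhex to Pax8 was 0.580 and 0.770 in mThy14, 0.409 and 0.334 in mThy16, and 0.153 and 0.411 in tissue. Glis3 to Pax8 was highest in mThy16, at 0.160 and 0.171, against 0.0659 and 0.0410 in mThy14 and 0.0317 and 0.0795 in tissue.

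Between the lines, the function genes mostly had higher values in mThy14. Of the 10, 9 had higher fitted values in mThy14 and Slc26a4 a lower one (-1.99, SE 1.03, limma adjusted p = 0.416), with a median of 1.55 against 0.04 over all genes. None of the 10 was called by limma, where 0.973% of all genes were called higher and 2.37% lower. With voom Tg was called (adjusted p = 0.0471). Tg differed by 3.07 (SE 0.93, limma adjusted p = 0.137), a larger value than that of any factor, and Tshr by 2.08 (SE 0.56, limma adjusted p = 0.0918). Slc26a4 was at 191 and 269 in mThy14, at 914 and 892 in mThy16 and at 12.0 and 9.2 in tissue, and it shared with Glis3 a higher value in mThy16 than in all other libraries. Between passages 0 of the 10 were called, and 0 had an unadjusted p under 0.05.

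**Figure D4:**
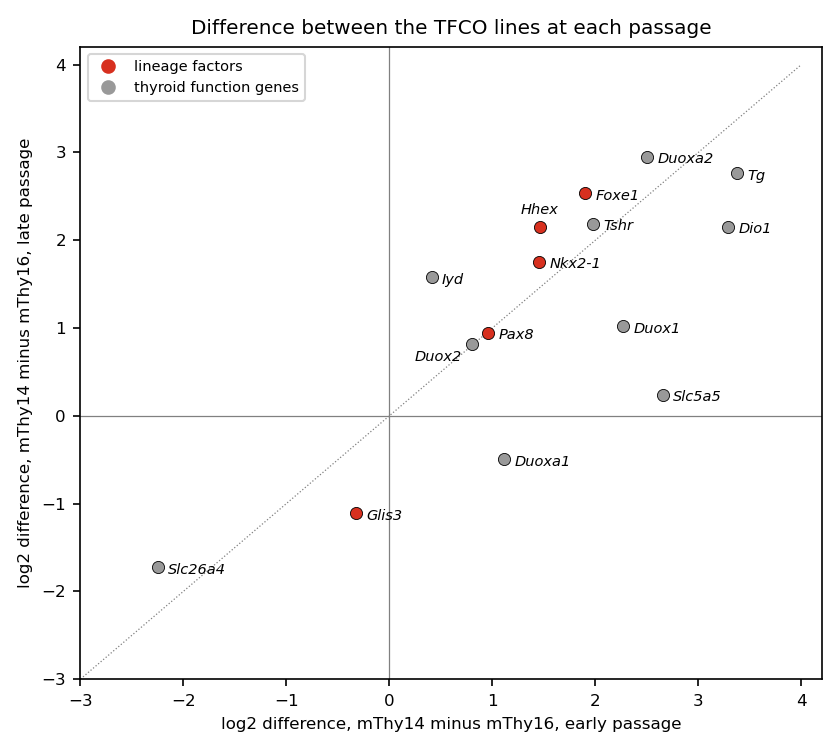
Log2 difference between lines mThy14 and mThy16 at early (horizontal) and late passage (vertical) for the 5 factors (red) and 10 function genes (grey); solid lines mark 0 and the dotted line equal values. Pax8 (0.96 early, 0.95 late) lies on the dotted line, and Glis3 and Slc26a4 lie below 0 at both passages.

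The genes whose pattern was most like that of each factor were found by Pearson's r of the log2 values over 10185 genes with a mean of 100 or more; these values are descriptions, since libraries of a line or tissue share their source. Over all 8 libraries the nearest genes were Gjb1 (r = 0.995), Arhgef33 (0.994) and Wnk2 (0.994) for Pax8, and Arhgef33 (0.995), Gjb1 (0.992) and Pax8 itself (0.991) for Foxe1. For Nkx2-1 they were Tsc22d4 (0.989), Cyhr1 (0.988) and Glrx5 (0.984), for Hhex Bspry (0.993), Slc46a1 (0.991) and Adora1 (0.984), and for Glis3 Syne4 (0.973), Hoxb2 (0.966) and Ccnjl (0.965). Without lung, over 6 libraries, Pax8 was nearest to Gjb1 (0.996), Syngr1 (0.994) and Alas1 (0.991), and Nkx2-1 to Hpcal1 (0.995), Rab3a (0.994) and Mknk2 (0.993). Foxe1 was nearest to Galns (0.995), Ttc28 (0.991) and Paqr4 (0.989), Hhex to Zadh2 (0.985), Ppt1 (0.984) and Slc46a1 (0.983), and Glis3 to Ckap2 (0.989), Haus3 (0.985) and Shroom3 (0.984). Gjb1, which encodes the gap junction protein connexin 32, led the list of Pax8 with and without the lung libraries. Slc46a1, a folate transporter, was on both lists of Hhex. Pax8 and Foxe1, absent or nearly so in lung, had an r of 0.848 without the lung libraries. Foxe1 was then at rank 308 for Pax8.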

How the data were processed

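Polyadenylated RNA of 4 TFCO libraries, 2 thyroid tissues and 2 lung tissues was sequenced. The authors deposited a table of normalized counts, a signal per gene formed by dividing reads by a size factor of the library. The study's methods name a stranded library preparation, mapping to the mouse genome and DESeq2, while the labels name an adapted CEL-Seq protocol. The submitters' processing notes name BWA 0.6.2-r126 with the builds mm10 and hg38, without a role for either, and the annotation was not given in the sources used here. Values were whole multiples of 1 step per library (tolerance 0.1 read) for 100% of values above 0, which gave the reads. Symbols of 15883 genes matched GENCODE M21, and 236 did not.

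Samples were grouped by their labels. log2(normalized count + 1) was analysed with limma 3.58.1 in R 4.3.3 (mean-variance trend, Benjamini-Hochberg, two-sided, threshold 0.05) for the 14703 genes that reached 10 in no fewer than 2 libraries. The fits were tested on simulated data of independent libraries. The simulation did not copy the shared source of the passages of a line, so it does not give the error rate here. TFCOs against a tissue, and thyroid against lung, used the mean of both passages of a line, since these are one culture. Passages and lines were compared in fits of all 8 libraries in 4 groups. For 2 samples against 2, the smallest two-sided p of an exact permutation test is 0.333, so none was used. Early and late libraries are paired by line according to the labels (correlation of the line difference between passages across genes, 0.477). Tissue numbers were not used as pairs, since the labels do not say whether equal numbers mean one mouse.

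Named genes were the 5 factors, 10 function genes, at most 4 called members for each related list and comparison, and the 3 genes most like each factor. Members and lists were chosen with earlier results of these data known. Krt7, Krt8 and Epcam of the marker lists, and Napsa and Abca3, were named after their values were seen. Alternatives were the pseudocount, the filter, the scaling, the trend, a block, and each library left out. Tests with count models on the recovered reads had been planned and were not run. A check of the unit did not accept the step of early mThy16 (0.990 normalized counts per read), although its reads were recovered. limma's voom on the recovered reads of all libraries was chosen after seeing the data. Results of some function genes are not reported here.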

Additional observations from a re-analysis of the deposited data

Results flagged for a closer look

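Foxe1 and Hhex moved in opposite directions between passages in the TFCO lines. Late minus early, Foxe1 was at 0.24 on the log2 scale in mThy14 and -0.40 in mThy16, and Hhex at 0.28 in mThy14 and -0.41 in mThy16. The difference was not tested, since each line has 1 library at each passage. Opposite signs were common, at 46.6% of the 14703 genes tested (6845 genes), so the pair stands near the level of all genes.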

How the results depend on the processing

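With 2 samples per group the calls rested on single libraries. Of the 5 factors, 0 were called between TFCOs and thyroid tissue and between passages under every alternative run. Nkx2-1 in TFCOs against thyroid tissue changed sign after quantile normalization (-0.25) and with totals scaled without Tg (-0.013), and ranged from -0.18 to 0.64 as each library was left out. Late against early, leaving out a library gave Pax8 -0.60 to 0.35, Nkx2-1 -1.05 to 0.70, Foxe1 -1.35 to 1.19, Hhex -1.14 to 1.01 and Glis3 -0.97 to 0.14, since the passages then hold the lines in unequal numbers. The number of factors called against lung fell from 4 to 2 without either lung library (range 2 to 4), and for thyroid against lung it was 2 to 3. Between lines it was 2 in the reported fit, 0 after quantile normalization, 0 without the trend, 1 with passage as a term, and 0 to 4 as each library was left out. The cause was not tested. Of 43 calls of named genes against lung tissue, other than the factors, 29 were lost without at least 1 lung library and 14 held under every alternative.

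Counts over all genes moved more. They ran from 78 (voom) to 4085 (without thyroid tissue 1) around 536 for TFCOs against thyroid tissue, from 248 (without lung 2) to 6986 around 3435 against lung, from 58 to 4311 around 889 for thyroid against lung, from 0 to 2 between passages, and from 25 (without late mThy16) to 1270 around 491 between lines. Between lines 143 genes were called higher and 348 lower, which became 60 and 260 after quantile normalization, 98 and 430 with equal totals, and 103 and 423 with equal totals without Tg. Equal totals moved the median of all genes there from 0.04 to -0.13. The line as a block called 0 genes between passages. A block by tissue number called 167 genes for thyroid against lung, with 2 factors as before, although these numbers are not pairs (correlation of deviations -0.0726). DESeq2 and edgeR were not run.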
